A study of Homo sapiens with 32 samples.

Results

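GPR50 is a G-protein-coupled receptor without an established ligand, encoded on the X chromosome. It was followed in HEK293 cells, an established human embryonic kidney line, as the 1 gene of the 57773 counted genes that carries this name. The gene was chosen by its 6 h values, which were several times higher with EGF and with AII+EGF than in control, so that these values are given as a description without a test. All cells had been transiently transfected with an expression plasmid for AT1R, the angiotensin II receptor type 1, controls included, and the stimuli were added in medium without serum. Cells were left without stimulus (control) or were given angiotensin II (AII, 1 nM), epidermal growth factor (EGF, 10 µg/l) or both (AII+EGF), for 6 h or 24 h. Each condition had 4 libraries after 6 h, and after 24 h control, AII and EGF had 4 libraries and AII+EGF had 3. Not every cell takes up the plasmid in a transient transfection, and the libraries are averages over whole cultures. In such bulk RNA, fewer cells with a transcript and less of it per cell cannot be told apart. The labels do not say whether the libraries of a condition came from separate cultures, and p-values then measure only the spread between these libraries.

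GPR50 belongs to the melatonin receptor family by sequence but does not bind melatonin. It is best known from the hypothalamus and pituitary, and it is reported to bind the melatonin receptor MT1 and the TGF-beta receptor type I. EGF acts through the receptor tyrosine kinase EGFR, which switches on the RAS-ERK cascade and, in its wake, genes such as EGR1, FOS and the ETS factors of the ETV group. AT1R is a receptor coupled to Gq proteins that can reach the same cascade by another way.

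In the GENCODE annotation lifted to GRCh37, the sequence behind the files' build hg19, GPR50 (ENSG00000102195) lies on the plus strand of the X chromosome at chrX:150345056-150349937 and spans 4882 bp. Its 2 exons are 325 and 1695 bp long and are separated by an intron of 2862 bp, and the coding part has 1851 bp. A non-coding gene on the opposite strand, GPR50-AS1 (ENSG00000234696, chrX:150343664-150346308), overlaps the start of the locus, and 81 bp of its second exon lie inside the first exon of GPR50. The strand setting of the read counting is not given in the sources used here, so reads from these 81 bp cannot be assigned to a strand. GPR50-AS1 itself had 0 to 6 counts per library after 6 h, with counts in 5 of 16 libraries, and 0 to 1 after 24 h.

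The promoter is shown because the gene was selected for its response to a stimulus and because motifs of stimulus-driven factors can be searched in it. RefSeq gives 250 bases before and 50 bases after the start in GRCh38.p14 (chrX:151176334-151176633, plus strand), and the same 300 bases occur once on the X chromosome of GRCh37, at chrX:150344806-150345105. The RefSeq start is also the GENCODE start. Capitals mark the motifs found by a search of both strands.
GPR50 promoter: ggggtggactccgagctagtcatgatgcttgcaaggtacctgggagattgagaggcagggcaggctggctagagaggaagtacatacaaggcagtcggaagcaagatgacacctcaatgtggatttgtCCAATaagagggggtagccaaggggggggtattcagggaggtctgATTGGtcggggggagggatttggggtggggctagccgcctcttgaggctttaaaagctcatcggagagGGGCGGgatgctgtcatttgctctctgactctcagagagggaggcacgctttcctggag
The motif CCAAT was found 2 times, 122 bases before the start and, on the other strand, 77 bases before it. The letters GGGCGG, read by SP and KLF factors, lie 9 bases before the start. These motifs are common, since 35.7% and 44.6% of 27305 RefSeq promoters of the same length hold them. The AP-1 motif TGANTCA (in 7.76% of promoters), the CRE motif TGACGTCA (1.98%), the EGR motif GCGNGGGCG (9.28%), the ETS motif CCGGAAG (10.7%) and the CArG box of SRF (1.29%) had no match in this window. The absence of these letters says nothing about sites elsewhere.

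The libraries held 3881841 to 8540815 counts after 6 h and 6646227 to 33070903 after 24 h, of which 81.4% to 84.7% and 20.8% to 63.4% lay on protein-coding genes. After 24 h genes of the U1 small nuclear RNA took 8.9% to 57.2% of a library. Levels are given as FPM, the count per 1000000 counts of the library total scaled by the TMM factor, and on this scale 3 counts correspond to 0.364 to 0.787 FPM after 6 h and to 0.159 to 0.393 FPM after 24 h. The neuronal and mesenchymal genes typical of HEK293 were present after 6 h, with NEFL at 395 to 602 FPM, NEFM at 358 to 811 FPM, VIM at 261 to 322 FPM, LHX1 at 4.72 to 10.4 FPM and INA at 3 to 9.81 FPM, whereas PAX2 had 0 to 5 counts. Of the markers of other cells, PTPRC, ALB and UMOD had at most 4 counts per library, while COL1A1 (10.8 to 30.3 FPM) and MYH11 (10.4 to 21.3 FPM) were detected in all libraries of this time point. With EGF after 6 h, when 1.73% of all genes were called by the rule used for lists (adjusted p, fold and FPM), 1 of the 5 tested HEK293 markers was called, the neurofilament gene NEFM (443 ± 68.5 FPM in control, 670 ± 61.7 FPM with EGF, adjusted p = 4e-04 in edgeR), and none of the 2 tested markers of other cells. The transfected receptor AGTR1 reached 950 to 1570 FPM after 6 h and 369 to 685 FPM after 24 h. The times were scaled separately and differ in their share of protein-coding counts, so these ranges do not measure a change with time.

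Under control conditions after 6 h, GPR50 was close to the detection limit. The 4 control libraries held 3, 5, 1 and 6 counts, which is 0.694, 0.798, 0.192 and 0.992 FPM (0.669 ± 0.341, SD, n = 4). With AII the counts were 1, 2, 11 and 4, or 0.190, 0.320, 1.83 and 1.05 FPM (0.849 ± 0.759, SD, n = 4). The values of both conditions overlapped, with the last 2 AII libraries above all control libraries. After 6 h the library numbers run without a break, and the order of the conditions repeats in their second part. These 2 AII libraries belong to this second part, called the second series here. Its means were 0.592 FPM in control and 1.44 FPM with AII. In the first series both AII libraries lay below both control libraries, with means of 0.746 FPM in control and 0.255 FPM with AII. With the series as a block the fitted log2 difference of AII from control was 0.30, as it was without the block, and whether it differs between the series was not tested.

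With EGF, GPR50 had 51, 39, 62 and 74 counts, which is 8.73, 5.83, 9.78 and 8.97 FPM (8.33 ± 1.73, SD, n = 4). With AII+EGF the counts were 51, 49, 58 and 55, or 9.11, 8.90, 8.49 and 8.27 FPM (8.69 ± 0.382, SD, n = 4). Every library with EGF lay above every library without it, and the lowest of them (5.83 FPM) was still above the highest AII library (1.83 FPM). The coefficient of variation between libraries was 20.7% with EGF and 4.4% with AII+EGF, where counting alone gives 13.3% and 13.7%. In control it was 51.0% against 51.6% from counting, and with AII 89.4% against 47.1%.

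**Figure D1:**
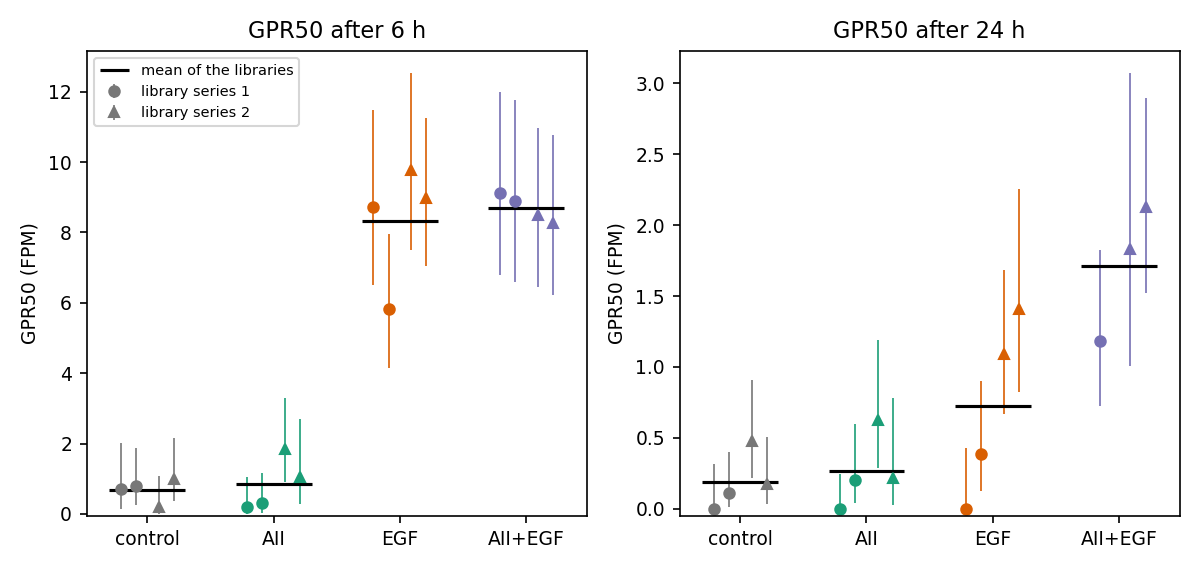
GPR50 level in FPM for each library (points with 95% Poisson interval of the count) under the 4 conditions, after 6 h (left) and 24 h (right, different scale), with circles and triangles for the library series and a line at the mean. After 6 h the libraries with EGF lie between 5.83 and 9.78 FPM and those without between 0.190 and 1.83 FPM, while after 24 h no library exceeds 2.13 FPM.

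As a description, the fitted difference of EGF from control after 6 h was 3.56 on the log2 scale (SE 0.37, 95% interval 2.80 to 4.33), or 11.8-fold, which is rank 6 among 18618 genes in the fit. For AII+EGF against control it was 3.63 (SE 0.37), or 12.3-fold, also rank 6, and for EGF on top of AII 3.33 (SE 0.36), or 10.1-fold. These differences share libraries with one another and are those for which the gene was picked. By the call rule of an FDR below 0.05, a fold change above 1.5 and FPM above 5 in the higher group, 1.73% of all tested genes were called for EGF and 1.95% for AII+EGF, and GPR50 was among them by its selection.

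The libraries with AII alone were not used to choose the gene, but the control libraries they are compared with were. AII differed from control after 6 h by 0.30 on the log2 scale (SE 0.56, 95% interval -0.87 to 1.46, adjusted p = 0.99 in edgeR's quasi-likelihood test). The exact two-sided permutation test on FPM gave p = 0.71, where the smallest p for 4 against 4 libraries is 0.029. Without the third AII library the difference was -0.55. The interval leaves room for a change of more than 2-fold in the upward direction, since it rests on 18 counts with AII and 15 in control. Of all genes, 0% were called for AII after 6 h (0 genes in edgeR and 0 in DESeq2, with 845 at an unadjusted p under 0.05).

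Both EGF and AII+EGF served to choose the gene, so that their comparison after 6 h is a description as well. AII+EGF differed from EGF by 0.06 (SE 0.24), and the 95% interval of -0.44 to 0.56 is the narrowest of all comparisons of this gene. Without the second EGF library, which held 39 counts, the difference was -0.07. No gene was called in this comparison in edgeR (0%, with 1352 at an unadjusted p under 0.05), and DESeq2 called 1. The deviation of AII+EGF from the sum of the single effects on the log2 scale was -0.24 (SE 0.61, 95% interval -1.49 to 1.02). It is given as a description, and it took the values 0.61 without the third AII library and 0.05 without the third control library.

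After 24 h GPR50 was low in every library. The control libraries held 0, 2, 9 and 3 counts, or 0, 0.111, 0.478 and 0.172 FPM (0.190 ± 0.205, SD, n = 4). With AII there were 0, 3, 9 and 2 counts, or 0, 0.205, 0.627 and 0.217 FPM (0.262 ± 0.263, SD, n = 4). Control and AII covered nearly the same range.

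The EGF libraries after 24 h held 0, 5, 20 and 17 counts, or 0, 0.387, 1.09 and 1.41 FPM (0.721 ± 0.643, SD, n = 4). One of them had no read of GPR50, as had 1 control and 1 AII library. With AII+EGF the 3 libraries held 20, 14 and 40 counts, or 1.18, 1.83 and 2.13 FPM (1.71 ± 0.486, SD, n = 3). All 3 lay above every control and AII library, and EGF lay in between with overlap on both sides.

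The libraries after 24 h were also split into 2 series, here at a gap in the library numbers. GPR50 was lower in the first series in each condition. Whether these series correspond to those after 6 h is not known. The means of the first and the second series were 0.0556 and 0.325 FPM in control, 0.103 and 0.422 FPM for AII, 0.194 and 1.25 FPM for EGF and 1.18 and 1.98 FPM for AII+EGF, the last from 1 and 2 libraries. The 3 libraries without a GPR50 read all belong to the first series. In both series AII+EGF lay above each EGF library, and in the second series both EGF libraries lay above all AII and control libraries. All columns of the first series are named as filtered in the deposited table, as is 1 of the second, without an explanation, and the part of the series and of this filter in the levels was not tested. The U1 share was 8.90% to 22.9% in control, 11.4% to 57.2% for AII, 12.2% to 33.5% for EGF and 10.3% to 55.6% for AII+EGF, and its part was not tested either.

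The gene was chosen by its values after 6 h, and the comparisons after 24 h were tested. Earlier results of these data were known by then, so these tests are not independent of them. GPR50 was in the 24 h fit through its libraries with EGF and AII+EGF. It did not pass the filter with control and AII alone or with control and EGF alone. EGF differed from control by 1.84 on the log2 scale (SE 0.98, 95% interval -0.19 to 3.88), which did not pass the threshold (adjusted p = 0.64 in edgeR's quasi-likelihood test). EGF was higher in 11 of 16 pairs of libraries, and the exact two-sided permutation test gave p = 0.26. In this comparison 7 genes passed the FDR of 0.05 in edgeR (0.0316% of the 22174 tested, with 99 in DESeq2).

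AII+EGF differed from control by 3.05 (SE 1.02, 95% interval 0.92 to 5.17), or 8.26-fold, rank 12 of 22174 genes. It was higher in 12 of 12 pairs. The difference did not pass the correction over all genes (adjusted p = 0.67 in edgeR), and the exact permutation test gave p = 0.057, the smallest that 3 against 4 libraries allow. Of all genes, 6 passed here (0.0271%, with 50 in DESeq2). The scatter of GPR50 was wide, with a biological coefficient of variation of 77.6% after 24 h against 14.8% after 6 h. The common value over all genes in the fit was also higher, at 29.1% after 24 h against 10.6% after 6 h.

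With the 7 libraries that received EGF set against the 8 that did not, a comparison added after the values had been seen, the mean effect of EGF was 2.25 (SE 0.71, 95% interval 0.78 to 3.72), or 4.77-fold. EGF libraries were higher in 46 of 56 pairs and the exact two-sided permutation test over libraries gave p = 0.0084. This test shuffled the libraries without regard to AII or the library series, and the pooling was chosen after the values. Its p is therefore only a description. In the fit over all genes the effect did not pass (adjusted p = 0.22 in edgeR, 0.089 with the library series as a block), where 103 genes did (0.465%). EGF on top of AII, added in the same way, gave 2.66 (SE 1.02, 95% interval 0.54 to 4.79, adjusted p = 1 in edgeR) without overlap of the libraries, and 10 genes passed in this comparison (0.0451%).

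AII alone had an effect of 0.38 after 24 h (SE 1.03, 95% interval -1.76 to 2.53, adjusted p = 1 in edgeR), which was -0.55 without the third AII library. AII+EGF exceeded EGF by 1.20 (SE 0.95, 95% interval -0.78 to 3.19, adjusted p = 1 in edgeR), with 11 of 12 pairs higher and an exact permutation p = 0.11. The deviation from additivity was 0.82 (SE 1.44, 95% interval -2.18 to 3.82, adjusted p = 1 in edgeR) and -0.11 without the third control library. These 3 comparisons called 0% of the genes in edgeR and 0 genes in DESeq2, with 552, 747 and 525 genes at an unadjusted p under 0.05. Intervals of this width do not show that AII leaves GPR50 unaltered after 24 h.

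**Figure D2:**
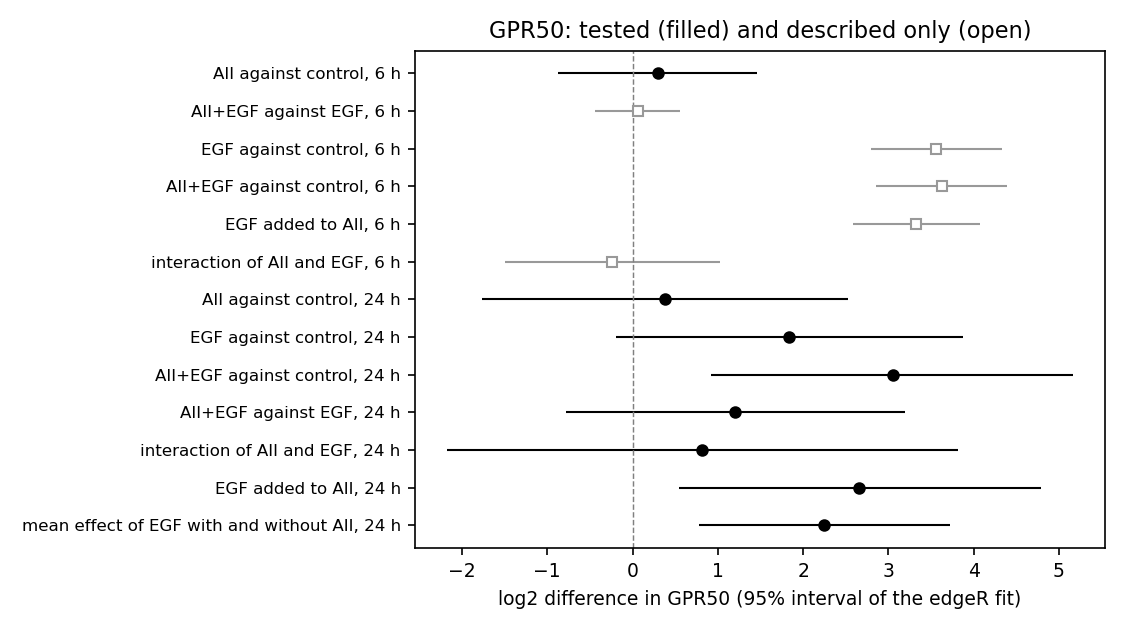
Fitted log2 differences of GPR50 with their 95% intervals for each comparison after 6 h and 24 h, filled where tested and open where described only. Open comparisons contain libraries with EGF after 6 h, which served to choose the gene. AII against control after 6 h is filled, although its control libraries served for this choice too. The comparisons with EGF after 6 h lie between 3.33 and 3.63, AII+EGF against EGF after 6 h lies at 0.06 with the narrowest interval, and all intervals after 24 h are wider.

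Both tables were scaled separately, and the time points are therefore set side by side without a test. Scaled to 1000000 counts on protein-coding genes, which sets aside the U1 reads, GPR50 had means of 0.806 (control), 1.03 (AII), 9.91 (EGF) and 10.2 (AII+EGF) after 6 h. The corresponding means after 24 h were 0.448, 0.617, 1.67 and 4. The order of the condition means was the same at both times. After 6 h neither control and AII nor EGF and AII+EGF could be separated, and after 24 h only AII+EGF was separated from control and AII without overlap.

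Among the genes around GPR50, the nearest downstream gene also had more reads with EGF after 6 h. AF003625.3 (ENSG00000269993), annotated as a long non-coding RNA of 470 bp on the same strand at chrX:150350858-150351327, begins 920 bp after the end of GPR50, and it was singled out after its values were seen. After 6 h it had 0, 1, 1 and 0 counts in control and 3, 0, 0 and 2 with AII. With EGF it had 11, 14, 6 and 15 counts, and with AII+EGF 10, 12, 6 and 7. No library without EGF reached the lowest library with EGF.

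For AF003625.3 the 46 counts with EGF against 2 in control give a ratio of 18.5 after scaling (95% exact interval 4.85 to 158, which covers counting error only), and the 35 counts with AII+EGF give 15.6 (4 to 134). Both comparisons passed the FDR (adjusted p = 0.0019 and 0.0039 in edgeR), as did 5.97% and 6.1% of all genes, although its mean of 1.68 FPM with EGF stayed below the FPM limit. Counted over the libraries, AF003625.3 had 20.4 reads per 100 reads of GPR50 with EGF and 16.4 with AII+EGF. After 24 h AF003625.3 again had more counts with EGF than with AII+EGF, but from few reads in 4 and 3 libraries. AF003625.3 then had 2 (control), 3 (AII), 9 (EGF) and 6 (AII+EGF) counts in all libraries together, where GPR50 had 14, 14, 42 and 74, which is 21.4 reads per 100 reads of GPR50 with EGF and 8.1 with AII+EGF. From the start of GPR50 to the end of AF003625.3 there are 6272 bp in GRCh37, and the RefSeq model of GPR50 in GRCh38.p14 spans 6273 bp, against 4882 bp in the GENCODE model. Whether these reads belong to a longer transcript of GPR50 was not tested.

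**Figure D3:**
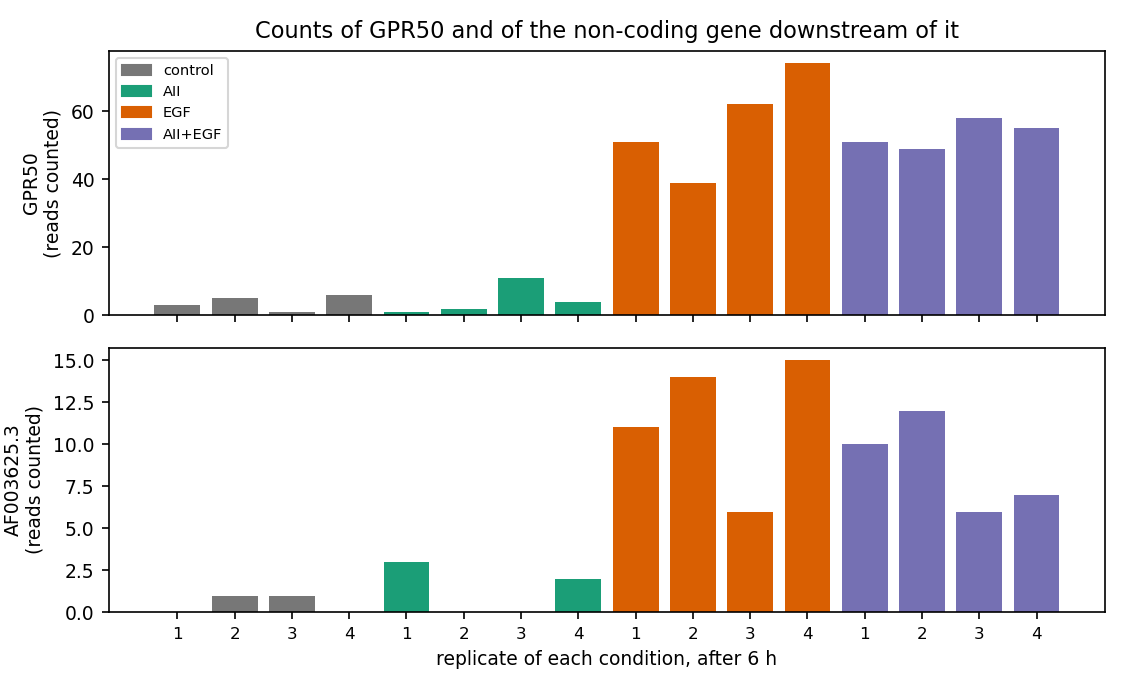
Reads counted on GPR50 (top) and on AF003625.3, the non-coding gene 920 bp downstream (bottom), in each of the 16 libraries after 6 h, coloured by condition. With EGF the counts are 39 to 74 and 6 to 15, and without EGF 1 to 11 and 0 to 3.

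Of the 20 nearest annotated genes, 19 were counted and 4, AF003625.3 among them, passed the filter for the fit after 6 h. None met all 3 criteria of the call rule with EGF or AII+EGF, which 1.73% and 1.95% of all genes met. VMA21, which encodes an assembly factor of the vacuolar proton pump, starts 219931 bp after the start of GPR50. It went from 144 ± 7.32 to 178 ± 15 FPM with EGF (SD, n = 4 libraries each, log2 difference 0.30, SE 0.08, adjusted p = 0.019 in edgeR), below the fold limit. HMGB3, which encodes a chromatin protein, was at 38.2 ± 2.87 FPM in control and 45.2 ± 4.26 FPM with EGF and did not pass (adjusted p = 0.23 in edgeR). The fourth gene in the fit, the non-coding RP11.316K19.3, had 3 to 15 counts per library, at 1.07 ± 0.465 FPM in control and 1.62 ± 0.706 FPM with EGF (adjusted p = 0.50 in edgeR). The genes outside the fit had at most 6 counts in any library.

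GPR50 was one of many receptors of its class with a low level. Per length of all annotated exons of a gene (FPKM), it ranked 27 among 64 class A receptors with a GPR name in control after 6 h, with 0.331. The exons of all transcripts in GENCODE were joined for this length, so the ranks depend on the annotation. With EGF and AII+EGF it ranked 7, with 4.12 and 4.30. The first rank was held in all 3 conditions by GPR27, at 9.78, 10.0 and 10.9 FPKM. After 24 h GPR50 ranked 31 in control (0.0942 FPKM), 21 with EGF (0.357 FPKM) and 16 with AII+EGF (0.849 FPKM).

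None of the other 63 receptors was called with EGF or AII+EGF at either time, where 26 could be tested after 6 h and 30 after 24 h. With 1.73% (EGF) and 1.95% (AII+EGF) of all genes called after 6 h, and 0.0316% and 0.0271% past the FDR after 24 h, lists of this size would hold about as few calls at the rate of all genes. Their median log2 difference with EGF after 6 h was -0.01, as it was over all genes. GPR63, the one with the most reads, had 38.8 ± 7.96 FPM in control and 47.0 ± 4.88 FPM with EGF (SD, n = 4, adjusted p = 0.19 in edgeR). GPR135 had 32.7 ± 3.71 and 35.2 ± 4 FPM, and GPR176 had 30.5 ± 1.02 and 30.1 ± 2.41 FPM.

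By the FDR without the other criteria, 2 of the 26 tested receptors passed with AII+EGF after 6 h, where 6.1% of all genes did. GPR3, a receptor that raises cAMP without a ligand, was 1 of them and is named here after its values were seen. GPR3 was at 0.579 ± 0.254 FPM in control, 0.708 ± 0.416 FPM with AII, 1.37 ± 0.590 FPM with EGF and 3.36 ± 1.25 FPM with AII+EGF. The log2 difference of AII+EGF from control was 2.55 (SE 0.44). It is a description, since GPR3 was in the fit through its libraries with EGF. The gene stayed below the FPM limit.

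**Figure D4:**
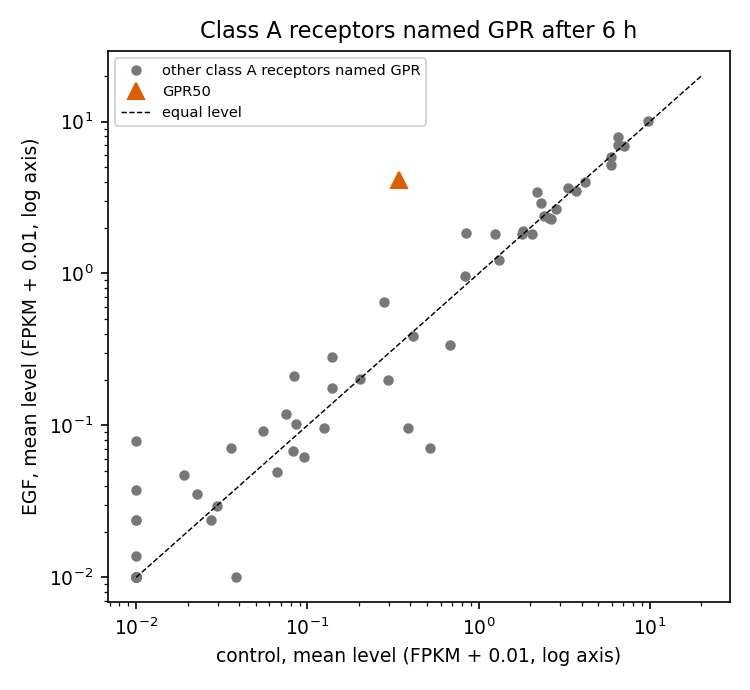
Mean level with EGF against mean level in control after 6 h for 64 class A receptors with a GPR name, in FPKM + 0.01 on log axes, with the line of equal level. GPR50 lies at 0.331 FPKM in control and 4.12 FPKM with EGF, and GPR27 is the highest at 9.78 and 10.0 FPKM.

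The relatives of GPR50 and the other genes of the melatonin system showed no call. MTNR1A, the melatonin receptor MT1, had 4 to 19 counts per library after 6 h and was at 1.38 ± 0.510 FPM in control and 1.98 ± 0.920 FPM with EGF (SD, n = 4), too low for the fit. MTNR1B, the receptor MT2, had 0 to 1 counts. Of 11 genes of this system 6 were tested after 6 h and 7 after 24 h, and none was called with EGF or AII+EGF. At 1.73% and 1.95% of all genes after 6 h, and 0.0316% and 0.0271% past the FDR after 24 h, this is near the rate of all genes. Those with the most reads were the inhibitory G-protein subunits GNAI3 (77.5 ± 9.12 FPM in control, 89.1 ± 4.77 FPM with EGF), GNAI1 (40.7 ± 5.35 and 40.2 ± 2.01 FPM) and GNAI2 (33.5 ± 4.87 and 26.3 ± 4.23 FPM).

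Of 12 reported partners of GPR50, none of the 10 that could be tested was called with EGF or AII+EGF after 6 h, or of the 11 tested after 24 h, which is again near the rate of all genes (1.73% and 1.95% after 6 h, 0.0316% and 0.0271% past the FDR after 24 h). SMAD2, a transcription factor of the TGF-beta pathway, was at 124 ± 14.7 FPM in control and 119 ± 7.97 FPM with EGF. RTN4, which encodes the neurite outgrowth inhibitor Nogo, was at 125 ± 12.3 and 121 ± 7.43 FPM, and SMAD4, the common SMAD, at 115 ± 9.50 and 118 ± 5.85 FPM. TGFBR1, the TGF-beta receptor type I, was at 88.0 ± 4.11 FPM in control and 104 ± 11.3 FPM with EGF after 6 h (log2 difference 0.24, SE 0.08, adjusted p = 0.095 in edgeR).

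Of 24 genes known to follow the ERK cascade 20 were tested after 6 h, and 10 were called higher with EGF and 12 with AII+EGF, none lower, where 1.73% and 1.95% of all genes were called in either direction. The median log2 difference of the list was 0.88 with EGF and 1.09 with AII+EGF, against -0.01 over all genes in both. EGR1, a zinc finger factor of the immediate early response, rose from 2.25 ± 0.721 to 51.5 ± 3.62 FPM with EGF (SD, n = 4, adjusted p = 2.4e-14 in edgeR). FOS, a subunit of AP-1, rose from 0.984 ± 0.353 to 5.12 ± 1.02 FPM (adjusted p = 3.2e-05 in edgeR), and DUSP5, a phosphatase of ERK, from 1.78 ± 0.281 to 5.44 ± 1.09 FPM (adjusted p = 0.00036 in edgeR). After 24 h 1 of 23 tested genes was called with EGF, against 0.0316% of all genes. This was EGR1, which was at 4.78 ± 1.01 FPM in control and 27.5 ± 3.71 FPM with EGF.

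Of the receptors of the stimuli, EGFR went from 45.6 ± 4.87 FPM in control to 58.0 ± 5.27 FPM with EGF after 6 h (log2 difference 0.35, SE 0.10, adjusted p = 0.032 in edgeR), below the fold limit. AGTR1 was at 1100 ± 106 FPM in control and 1100 ± 94.6 FPM with EGF, and at 1390 ± 93.2 FPM with AII and 1500 ± 76.0 FPM with AII+EGF. With AII+EGF it passed the FDR against control in edgeR, as did 6.1% of all genes, and stayed below the fold limit. With AII alone no gene passed. The count of AGTR1 comes from the plasmid together with the cell's own gene.

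The 5 genes whose pattern over the 16 libraries after 6 h was nearest to that of GPR50 were EGR3, NAB2, ARC, ZCCHC12 and ETV5. Likeness was measured as the root mean square difference of log2(FPM + 0.5) after centring each gene on its mean, and it was 0.448, 0.562, 0.593, 0.593 and 0.611, against a median of 1.56 over 18617 genes. EGR3, a zinc finger factor, had 1.11 ± 0.195 FPM in control and 0.921 ± 0.276 FPM with AII, but 7.43 ± 0.990 FPM after EGF and 9.84 ± 1.47 FPM after AII+EGF. NAB2, a corepressor of EGR factors, had 5.94 ± 1.58, 6.16 ± 2.40, 29.5 ± 1.30 and 34.3 ± 2.81 FPM. In both, as in GPR50, control and AII lay close together and both conditions with EGF were higher. This follows from the choice of the genes, since likeness was measured over these same libraries.

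ARC, a cytoskeleton-associated protein of the immediate early response, had 1.61 ± 1.07, 2.05 ± 0.746, 9.95 ± 1.58 and 18.3 ± 2.40 FPM in the same order. ZCCHC12, a zinc finger protein, had 1.21 ± 0.225, 1.53 ± 1.06, 10.8 ± 1.44 and 11.1 ± 1.88 FPM. ETV5, an ETS factor, had 0.138 ± 0.163, 0.293 ± 0.252, 7.82 ± 1.43 and 9.20 ± 2.42 FPM. The EGF and AII+EGF means of ZCCHC12 were as close to each other as those of GPR50, whereas ARC was higher with AII+EGF in these libraries.

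**Figure D5:**
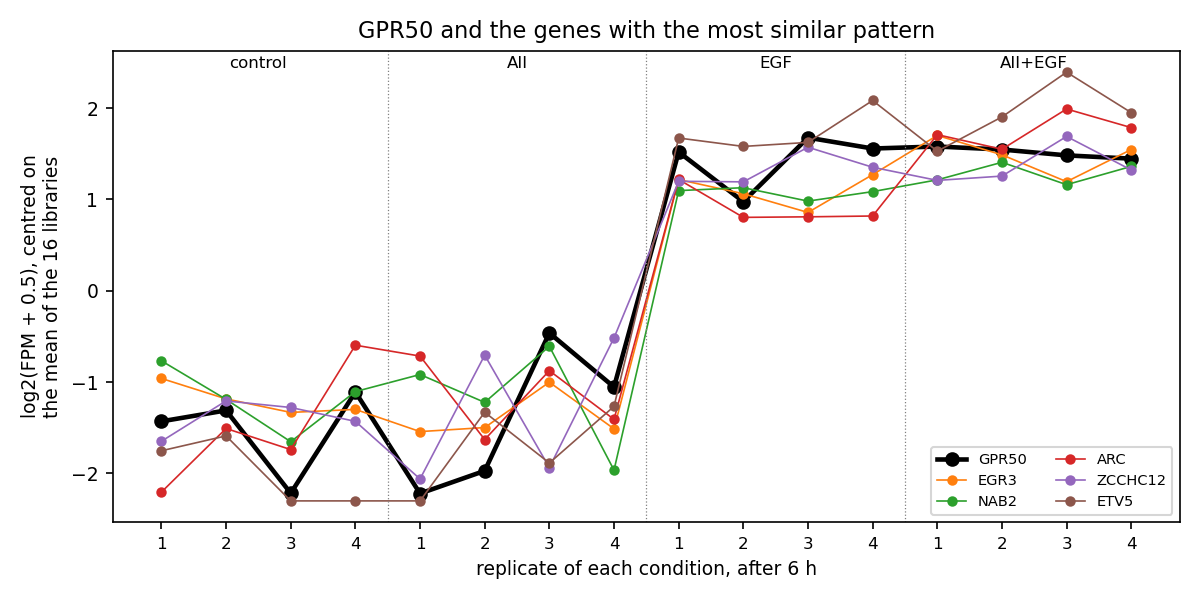
Level of GPR50 (black) and of the 5 genes with the most similar pattern in each of the 16 libraries after 6 h, as log2(FPM + 0.5) centred on the mean of the gene. All 6 genes are below their mean in the 8 libraries without EGF and above it in the 8 libraries with EGF. The shared pattern follows from their choice by likeness to GPR50 over these libraries.

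After 24 h the 5 nearest genes over 15 libraries were others. They were KRT17, AGAP2, ASS1, PALM3 and the pseudogene DUSP8P5, with differences of 0.464 to 0.523 against a median of 0.872 over 22173 genes. KRT17, a keratin, had no reads in the control libraries, 0.0498 ± 0.0997 FPM for AII, 0.507 ± 0.489 FPM for EGF and 1.08 ± 0.144 FPM for AII+EGF (n = 3). ASS1, the argininosuccinate synthase of the urea cycle, had 11.2 ± 2.38, 10.6 ± 1.25, 16.1 ± 2.16 and 20.5 ± 2.07 FPM. AGAP2 had means of 2.04 FPM in control and 3.77 FPM with AII+EGF. EGR3 held rank 340 by likeness after 24 h and ARC rank 8413, so that the nearest genes at one time were not the nearest at the other.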

How the data were processed

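RNA of 31 libraries of HEK293 cells was analysed, 16 after 6 h and 15 after 24 h. For 1 of the 32 labelled libraries (AII+EGF, 24 h) no column of counts was mapped. Per the labels and the study's methods, ribosomal RNA was depleted, paired ends were sequenced, and the authors clipped adaptors (cutadapt 1.8.1), mapped to hg19 (TopHat2 2.0.14) and counted reads per gene (featureCounts 1.4.6), with Ensembl annotation; the deposited values are raw counts.

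TMM factors, filterByExpr and quasi-likelihood F tests were computed from the counts with edgeR 4.0.16 in R 4.3.3, in 1 fit per time point with all 4 conditions, and p-values were adjusted (Benjamini-Hochberg) over 18618 and 22174 genes. List members were called at an adjusted p under 0.05, a fold change over 1.5 and a mean FPM over 5 in the higher group. GPR50 was judged on the adjusted p alone after 24 h. Exact two-sided permutation tests on FPM used SciPy 1.17.1. Counts of 3 or fewer were taken as the floor, and Poisson intervals cover counting error only. The procedure was tested on simulated counts. No pair of libraries of a condition agreed within sampling noise.

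The gene, the lists and the comparisons were chosen with earlier results of these data known. The genes named were GPR50, its overlapping gene, the 5 nearest genes by pattern at each time, AGTR1, EGFR, up to 6 called members of each list, or its 3 most abundant members where none was called, and all markers; of these, PECAM1 was not matched. Alternatives were DESeq2 1.42.0, its size factors in edgeR, no filter, protein-coding genes only, the library series as a block, only the libraries compared, the FDR alone as call rule, unscaled and protein-coding totals, and each library left out. Locus and promoter came from GENCODE (GRCh37) and RefSeq (GRCh38.p14). One receptor of the lists is not reported here.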

Additional observations from a re-analysis of the deposited data

Results flagged for a closer look

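Of 56 groups of 4 libraries that were checked for a library apart from the others, 4 were found, where chance gives about 2.8. None of them concerned GPR50. The gap of 1 library to its neighbour, as a share of the whole range of the group, was 0.931 for EGR3 with AII after 6 h (0.761, 0.787, 0.8 and 1.33 FPM), 0.969 for ARC with EGF after 6 h (9.11, 9.15, 9.22 and 12.3 FPM), 0.843 for ETV5 with EGF after 6 h (6.87, 7.10, 7.36 and 9.94 FPM) and 1 for KRT17 with AII after 24 h (0 FPM in 3 libraries and 0.199 FPM in the other). The value of KRT17 is within the floor of 3 counts.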

How the results depend on the processing

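GPR50 kept the direction and the side of the threshold under all other tests, scalings, filters and fits that gave a value. The difference of EGF from control after 6 h stayed between 3.56 and 3.61, and that of AII+EGF from control after 24 h between 3.02 and 3.13 (adjusted p 0.20 to 0.68 in edgeR or DESeq2). The mean effect of EGF after 24 h stayed between 2.23 and 2.26 (adjusted p 0.069 to 0.22). Leaving out 1 library turned only small differences around: AII against control ranged from -0.55 to 0.62 after 6 h and from -0.55 to 1.30 after 24 h, AII+EGF against EGF after 6 h from -0.07 to 0.14, and the deviation from additivity from -0.56 to 0.61 after 6 h, where it was 0.05 without the third control library, and from -0.11 to 1.74 after 24 h. EGF on top of AII after 6 h ranged from 3.01 to 4.18, with the highest value without the third AII library. After 24 h the ranges without 1 library were 1.36 to 2.76 for EGF and 2.71 to 3.96 for AII+EGF against control, 2.24 to 3.59 for EGF on top of AII, 0.83 to 1.69 for AII+EGF against EGF and 2.01 to 2.72 for the mean effect of EGF, with no adjusted p below 0.13. Scaled to 1000000 counts on protein-coding genes the level was 10.2 with AII+EGF after 6 h and 0.448, 0.617, 1.67 and 4 for control, AII, EGF and AII+EGF after 24 h, by construction of the smaller total. Called list members after 24 h with EGF numbered 2 in place of 1 under DESeq2, without the filter and with the series block; the cause was not tested. With only the libraries compared, GPR50 did not pass the filter for AII at either time and for EGF after 24 h, and DESeq2 gave no adjusted p for EGF after 24 h. With the FDR alone in place of all criteria the call numbers rose from 322 to 1112 genes with EGF and from 363 to 1136 with AII+EGF after 6 h. No paired analysis was possible because replicates carry no number in the labels. Counting error is wide for GPR50 after 24 h, with 0 to 40 counts per library and no read in 3 of 15 libraries. There 3 counts correspond to a lower FPM than after 6 h, but the protein-coding counts were alike. They were 3216794 to 8028878 per library after 24 h and 3176067 to 7033501 after 6 h.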
